A study of Mus with 2 samples.

Results

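The fibroblast and myofibroblast marker genes described here are Dcn, Lum, Pdgfra, Pdgfrb, Acta2, Tagln, Fap, Postn and Thy1, 9 of the 32285 features counted in each tumor section. They were chosen by symbol as familiar markers, with earlier results of these data known. Shares of all genes given beside counts of members are therefore a description and not a test of the list. The unique molecular identifiers (UMIs) of the 9 genes were read by section, by distance from the tissue outline and by how they varied together. Both tumors grew from CT26, a mouse colon carcinoma line placed under the skin of BALB/c mice aged 6 to 8 weeks. The control group received PBS, whereas the treated group received 10 µg of recombinant mouse IL-7 (rIL7) into the peritoneum on days 11 and 13, and tumors were collected on day 15. The labels do not say how many animals the sections come from. Visium was used, an assay in which polyadenylated RNA of a thin frozen section is caught on a grid of barcoded spots, each of which can hold several cells of different types. Each group is 1 section here, so no test was possible, spots are not replicates, and every difference between groups is a difference between a pair of sections.

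Fibroblasts build and maintain connective tissue. They secrete collagens and the small proteoglycans that organize collagen fibrils, and they respond to platelet-derived growth factors through a pair of receptor tyrosine kinases. In tumors and wounds some acquire a contractile, myofibroblast state with smooth muscle actin, but pericytes and vascular smooth muscle share the contractile genes, and in mice T cells also carry Thy1. None of the 9 genes is therefore specific to fibroblasts on its own.

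The control section held 2219 kept spots with a median of 9623 UMIs, and the rIL7 section 1950 kept spots with a median of 12921.5. Levels are given as UMIs per 1000000 UMIs of the same spots (CPM), with 95% intervals that cover counting error only. The assay counts 3′ ends of molecules, so a level is not scaled by gene length. As a gauge of spread within a section, each was divided into 4 quadrants, and a difference was called by size, when a gene of at least 5 CPM on average differed at least 1.5-fold. Fewer cells of a type and less RNA per cell cannot be told apart in such sums.

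Dcn and Pdgfra supplied most of the transcripts of the 9 genes. In the control section Dcn gave 36.9% and Pdgfra 36.01% of 12609 member UMIs, and in the rIL7 section they gave 45.1% and 30.1% of 18575. Control levels ran from Dcn and Pdgfra, whose intervals overlapped, through Pdgfrb, Thy1, Acta2 and Postn to Lum and Fap, which also overlapped, with Tagln last. In the rIL7 section Dcn stood above Pdgfra, Pdgfrb could not be separated from Thy1 nor Fap from Postn by counting error, and Lum and Tagln came last. A sum over the list is therefore mainly a sum of Dcn and Pdgfra, and the members are described singly.

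**Figure D1:**
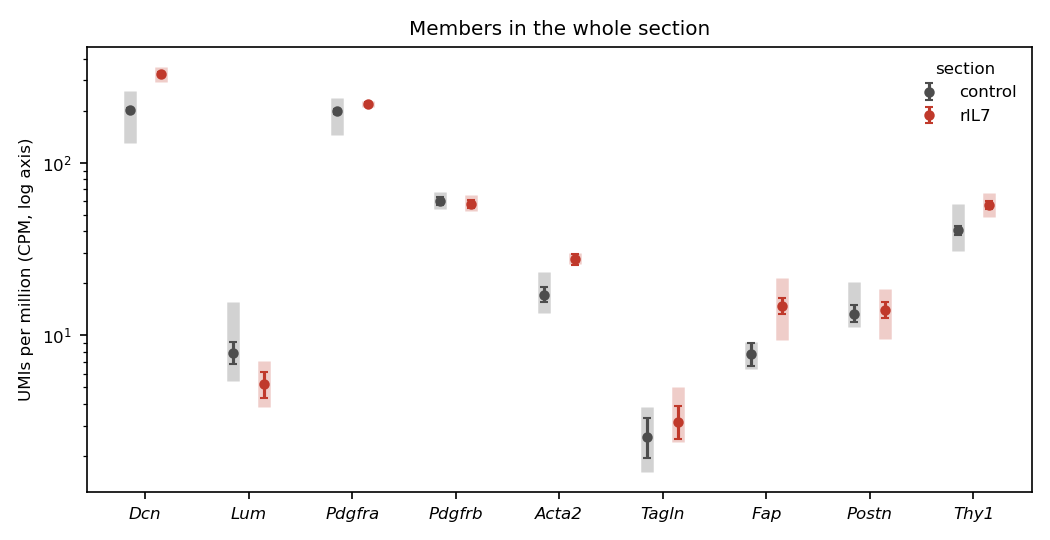
Level of each member in the control (grey) and rIL7 (red) section, in CPM on a log axis. Points are whole sections with 95% counting intervals, and pale bars span the 4 quadrants. Dcn, Acta2 and Fap are the members whose quadrants do not overlap between the sections.

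Across whole sections, Dcn, Acta2 and Fap were at least 1.5-fold higher in the rIL7 section and Lum was at least 1.5-fold lower. That is 3 higher and 1 lower of the 8 members that passed 5 CPM, against 3.26% of all tested genes higher and 2.20% lower. Quadrants did not overlap for the 3 higher members, which 10.0% of tested genes also showed, and overlapped for Lum. The median log2 ratio over the 9 members was 0.29, beside 0.00 over all genes.

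Dcn (ENSMUSG00000019929, chromosome 10, 97479500 to 97518163, GRCm38) encodes decorin, a small leucine-rich proteoglycan that binds collagen fibrils. It had 4649 UMIs or 203 CPM (197 to 208) in the control tumor and 8379 UMIs or 326 CPM (319 to 333) in the rIL7 tumor. The level was 1.61-fold higher with rIL7 (1.55 to 1.67), the control quadrants reaching 260 CPM at most and those of rIL7 starting at 292 CPM. Lum (ENSMUSG00000036446, chromosome 10, 97565501 to 97572703), its neighbour on the chromosome, encodes lumican of the same proteoglycan family. It went the other way, with 182 UMIs or 7.93 CPM (6.82 to 9.17) in the control tumor and 134 UMIs or 5.21 CPM (4.36 to 6.17) in the rIL7 tumor, giving a ratio of 0.657 (0.521 to 0.825). Its quadrants spanned 5.45 to 15.6 CPM and 3.87 to 7.07 CPM, and so overlapped.

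Of the receptors, Pdgfra (ENSMUSG00000029231, chromosome 5, 75151322 to 75198206) had 198 CPM (192 to 204) in the control tumor and 217 CPM (212 to 223) in the rIL7 tumor. The ratio was 1.099 (1.06 to 1.14), and the quadrants overlapped. Pdgfrb (ENSMUSG00000024620), which marks pericytes as well as fibroblasts, had 59.8 CPM (56.7 to 63.0) and 57.4 CPM (54.6 to 60.4). Its ratio of 0.961 had an interval of 0.892 to 1.03, so no difference was detectable at this depth. Of the 4 ligand genes, Pdgfb was 1.51-fold higher with rIL7 (1.30 to 1.76), at 12.2 and 18.4 CPM with overlapping quadrants, while Pdgfa and Pdgfc had ratios of 0.987 and 0.984.

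Acta2 (ENSMUSG00000035783, chromosome 19, 34240336 to 34255585) encodes the smooth muscle alpha-actin used to recognize myofibroblasts. It had 394 UMIs or 17.2 CPM (15.5 to 18.9) in the control tumor and 709 UMIs or 27.6 CPM (25.6 to 29.7) in the rIL7 tumor, giving a ratio of 1.61 (1.42 to 1.82). Control quadrants reached 23.3 CPM and rIL7 quadrants began at 26.0 CPM. Actin genes are near-identical in their coding parts, while the assay counts 3′ ends, and confusion of reads among paralogs was not tested. Tagln (ENSMUSG00000032085, chromosome 9, 45929628 to 45936058), which encodes the actin-binding protein SM22, was sparse, with 59 and 81 UMIs, 2.57 and 3.15 CPM, and a ratio of 1.22 whose interval of 0.865 to 1.74 included no change. The smooth muscle paralog Actg2 had 6 and 18 UMIs and the smooth muscle myosin Myh11 had 33 and 51. Skeletal muscle transcripts were also present in the control tumor, with Acta1 at 26.6 CPM against 0.894 CPM in rIL7. Leaving out the 83 control spots rich in muscle transcripts, a choice made after seeing the data, moved no member's ratio beyond its interval.

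Fap (ENSMUSG00000000392, chromosome 2, 62500936 to 62575509) encodes a membrane serine protease of activated fibroblasts. It had 178 UMIs or 7.76 CPM (6.66 to 8.98) in the control tumor and 381 UMIs or 14.8 CPM (13.4 to 16.4) in the rIL7 tumor, the largest ratio among the members at 1.91 (1.59 to 2.29). The quadrants nearly met, the highest of the control at 9.15 CPM and the lowest of rIL7 at 9.45 CPM. Postn (ENSMUSG00000027750, chromosome 3, 54359267 to 54391041) encodes periostin, a matrix protein of remodelling tissue. It had 13.3 CPM (11.9 to 14.9) and 14.1 CPM (12.7 to 15.6), and its ratio of 1.06 (0.904 to 1.23) was within counting error. Thy1 (ENSMUSG00000032011, chromosome 9, 44043384 to 44048579), the surface antigen CD90, had 40.5 CPM (37.9 to 43.2) and 56.7 CPM (53.9 to 59.7). Its ratio was 1.40 (1.29 to 1.52), and the quadrants overlapped. T cell genes moved with it: 8 of 9 T cell list genes above 5 CPM were called higher in rIL7, and the list stood at 157 and 320 CPM. Of these sums 95.5 and 112 CPM came from Trbc2, which was not called. The part of T cell genes in the Thy1 level was not tested.

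Whole-section ratios hid opposite differences by position. Spots within 2 grid steps of the outline of the main piece of tissue were taken as edge (401 control and 330 rIL7 spots) and the rest of that piece as interior (1806 and 1599 spots). In the interior Postn had 12.02 CPM in the control tumor and 6.89 CPM in the rIL7 tumor, giving a ratio of 0.573 (0.462 to 0.709) with quadrants apart. At the edge it had 18.3 and 40.0 CPM, giving a ratio of 2.18 (1.66 to 2.89), and the quadrants overlapped. Postn was thus 1 of 3 members called in the interior, the others being Dcn at 1.63 and Fap at 1.83, where 2.48% of tested genes were called in each direction. Quadrants were apart for Dcn on the high side, as for 7.98% of tested genes, and for Postn on the low side, as for 9.51%. Lum was under 5 CPM there and was not counted, but had 132 and 45 UMIs, a ratio of 0.290 (0.202 to 0.409) with quadrants apart.

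Comparing edge with edge, 5 members were called higher in the rIL7 section, against 10.7% of tested genes, and 1 was called lower, against 6.59%. Tagln was 2.73-fold (1.46 to 5.38), Acta2 2.49-fold (1.90 to 3.28), Fap 2.37-fold (1.44 to 3.99) and Thy1 2.30-fold (1.97 to 2.70) higher, beside the Postn value above. Quadrants were apart for Acta2, Fap and Thy1, as for 9.27% of tested genes. Pdgfrb was the lower one, with 62.8 and 41.8 CPM, a ratio of 0.665 (0.545 to 0.809) and quadrants apart, as for 8.60%. Dcn was 1.38-fold (1.26 to 1.51) and Lum 1.38-fold higher, and Pdgfra stood at a ratio of 0.875, all with overlapping quadrants. The Lum value was within counting error, resting on 45 and 12 UMIs at steps 1 and 2 of rIL7 and 27 and 20 in the control.

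Within the control section the members differed less between edge and interior in the summed counts. Postn was the 1 member called, with 18.3 CPM at the edge and 12.02 CPM inside, a ratio of 1.53 (1.17 to 1.97), where 1.28% of tested genes were called higher at the edge and 2.17% lower. Lum had a ratio of 1.46 (1.03 to 2.06) and Thy1 of 1.40 (1.20 to 1.63), while Pdgfra was lower at the edge at 149 against 210.0 CPM, a ratio of 0.707 (0.650 to 0.768). The intervals for Dcn, Pdgfrb, Acta2, Tagln and Fap included no difference. With each spot weighted equally, the log2 ratio of edge to interior went from 0.55 to 1.69 for Lum and from 0.61 to 1.13 for Postn, so the size of these control values depends on how shallow spots are counted. No member had edge and interior quadrants apart, beside 1.51% of tested genes apart with the edge higher and 5.90% with it lower.

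Within the rIL7 section 5 of the genes were high at the edge, 3 were lower there and Fap did not differ beyond counting error. Called higher were 5 of 9 members, against 8.86% of tested genes, and 1 was called lower, against 6.00%. Lum had 14.5 CPM at the edge and 2.08 CPM inside, a ratio of 6.98 (4.64 to 10.6). Tagln had 9.17 and 1.53 CPM, a ratio of 6.01 (3.64 to 9.95), and Postn had 40.0 and 6.89 CPM, a ratio of 5.81 (4.61 to 7.32). These 3 genes rested on 36 to 157 edge UMIs, and Tagln had none in 1 edge quadrant. Thy1 had 121 and 43.7 CPM, a ratio of 2.77 (2.47 to 3.09), and Acta2 had 45.1 and 23.0 CPM, a ratio of 1.96 (1.64 to 2.33).

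In the other direction Pdgfra had 130.0 CPM at the rIL7 edge and 234 CPM inside, a ratio of 0.556 (0.507 to 0.609). Pdgfrb had 41.8 and 60.1 CPM, a ratio of 0.695 (0.588 to 0.819), and Dcn had 273 and 333 CPM, a ratio of 0.821 (0.769 to 0.876). Fap, at 13.3 and 15.1 CPM, showed no difference beyond counting error. Edge and interior quadrants were apart for Lum, Postn, Thy1 and Acta2 on the high side, as for 9.94% of tested genes, and for Pdgfra and Pdgfrb on the low side, as for 14.2%. The receptor pair was low together and the contractile pair high together, whereas the proteoglycan pair divided. The median log2 ratio was 0.97 over the members and -0.05 over all genes in the rIL7 section, and 0.10 and -0.06 in the control section.

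**Figure D2:**
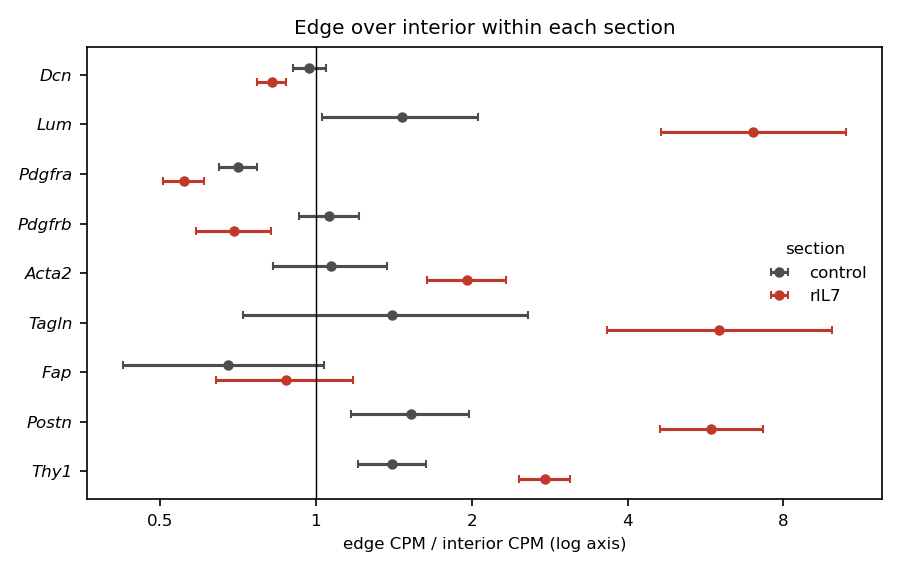
Ratio of edge CPM to interior CPM for each member in the control (grey) and rIL7 (red) section, on a log axis, with 95% counting intervals. Lum, Tagln and Postn lie at 5.81 to 6.98 in the rIL7 section and at 1.40 to 1.53 in the control, while Pdgfra lies below 1 in both.

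The gap between sections can be read as a difference of log2 ratios, edge over interior, rIL7 minus control. It was 2.25 (1.51 to 2.99) for Lum, 2.10 (1.01 to 3.19) for Tagln, 1.93 (1.44 to 2.42) for Postn, 0.98 (0.71 to 1.25) for Thy1 and 0.87 (0.44 to 1.30) for Acta2. It was negative for Dcn at -0.24, for Pdgfra at -0.35 and for Pdgfrb at -0.61, and for Fap its interval of -0.37 to 1.12 included 0. The fibrillar collagens Col1a1 and Col3a1 gave 1.87 and 1.53 and the pericyte gene Rgs5 gave 1.52, on the same scale as Postn.

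Narrower rings placed the high levels in the outermost layer. At step 1 of the rIL7 section, Tagln had 18.2 CPM against 1.42 CPM at step 2 and 1.51 CPM from step 12 inward. Lum went from 24.8 to 5.69 CPM at step 2 and to 0.753 CPM in the core, a 32.9-fold difference between step 1 and the core (14.0 to 94.5) that rested on 45 and 6 UMIs. Postn went from 65.6 to 18.01 and then 5.40 CPM, and Acta2 from 61.7 to 30.8 and then 19.8 CPM. Tagln, Lum and Postn were thus rim genes in this section: step 1 held 7.10% of all UMIs of the piece but 47.8% (35.6 to 60.2) of Tagln, 44.1% (34.3 to 54.3) of Lum and 38.9% (33.4 to 44.6) of Postn UMIs. Step 1 of the control section held 9.80% of all UMIs, 10.2% of Tagln, 15.1% of Lum and 16.2% of Postn UMIs.

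Thy1 declined more gradually in the rIL7 section, at 149, 96.7, 73.8, 47.2, 36.5 and 33.0 CPM from the outermost ring to the core, whereas in the control section it went from 57.6 to 27.1 CPM. Pdgfra climbed inward in both sections, from 143 CPM at step 1 to 234 CPM in the control core and from 127.3 CPM to a peak of 259 CPM at steps 8 to 11 in rIL7. Pdgfrb was between 54.5 and 68.4 CPM in every control ring, but stood at 43.5 and 40.3 CPM in the outer 2 rings of rIL7 and at 56.1 CPM or more further in. Dcn was flat in the control section, between 184 and 218 CPM. In the rIL7 section it had 324 CPM at step 1, dropped to 230 CPM at step 2 and then climbed to 397 CPM in the core. The step 1 level was close to that of the whole interior, 333 CPM. Depth also differed by ring: the median spot held 9489.5 UMIs at step 1 and 15552.5 in the core of the rIL7 section, and its part in the Dcn profile was not tested.

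**Figure D3:**
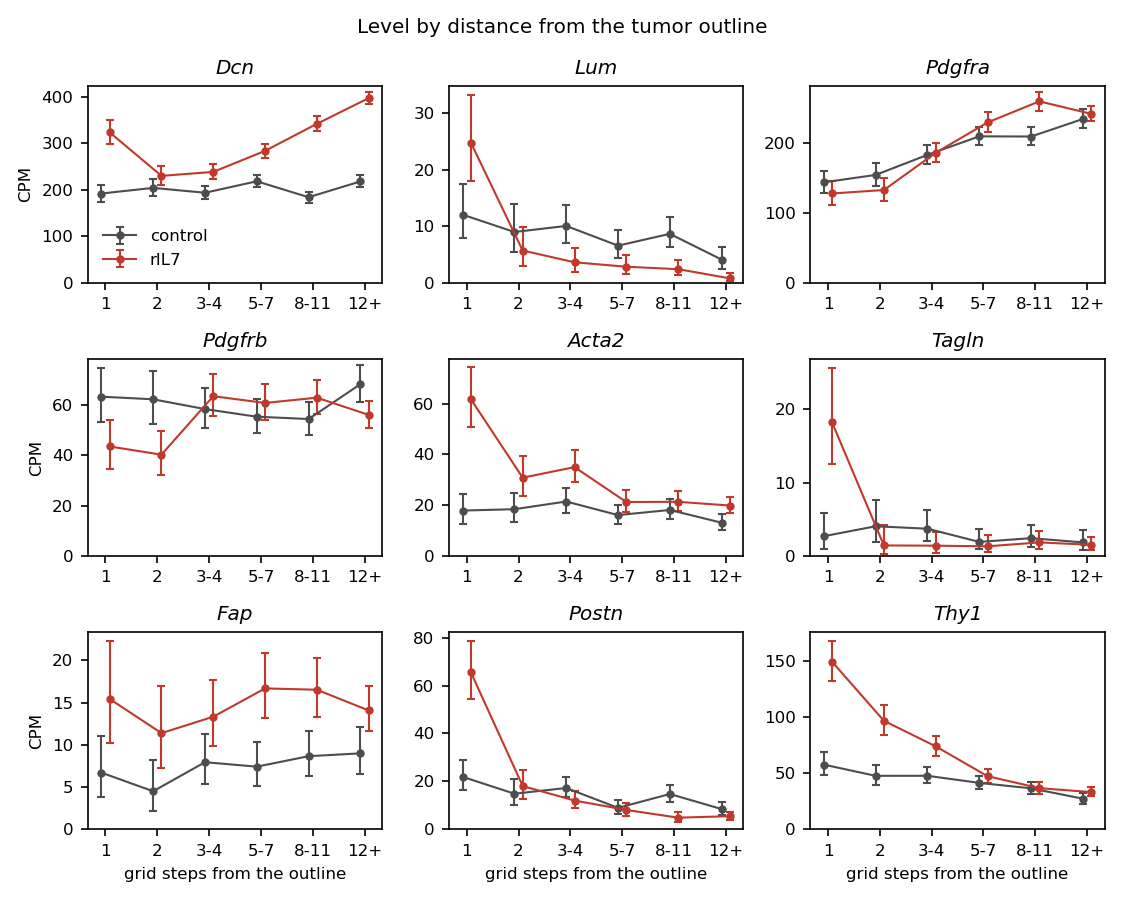
CPM of each member against distance from the outline in grid steps, in the control (grey) and rIL7 (red) section, with 95% counting intervals and axes from 0. In rIL7, Lum, Tagln and Postn drop steeply after step 1, Thy1 declines gradually, and Dcn rises from 230 CPM at step 2 to 397 CPM in the core.

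The rim was not even along its length. When step 1 was cut into 8 arcs by angle, all 8 rIL7 arcs exceeded the interior level for Acta2, Postn and Thy1, compared with 6 for Lum, 5 for Tagln, 3 each for Dcn and Fap, 1 for Pdgfrb and 0 for Pdgfra. Postn ranged from 13.0 to 147 CPM among these arcs with a median of 63.9 CPM, and Tagln from 0 in 3 arcs to 76.4 CPM. Among control arcs Postn exceeded the interior in 7 arcs and Thy1 in 6. The highest control values, 99.2 CPM of Postn and 184 CPM of Thy1, came from 1 arc of 20 shallow spots and rested on 7 and 13 UMIs, beside medians of 22.2 and 54.6 CPM. The arcs hold 18 to 40 spots each, and low and high values of the sparse genes alike rest on few UMIs.

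**Figure D4:**
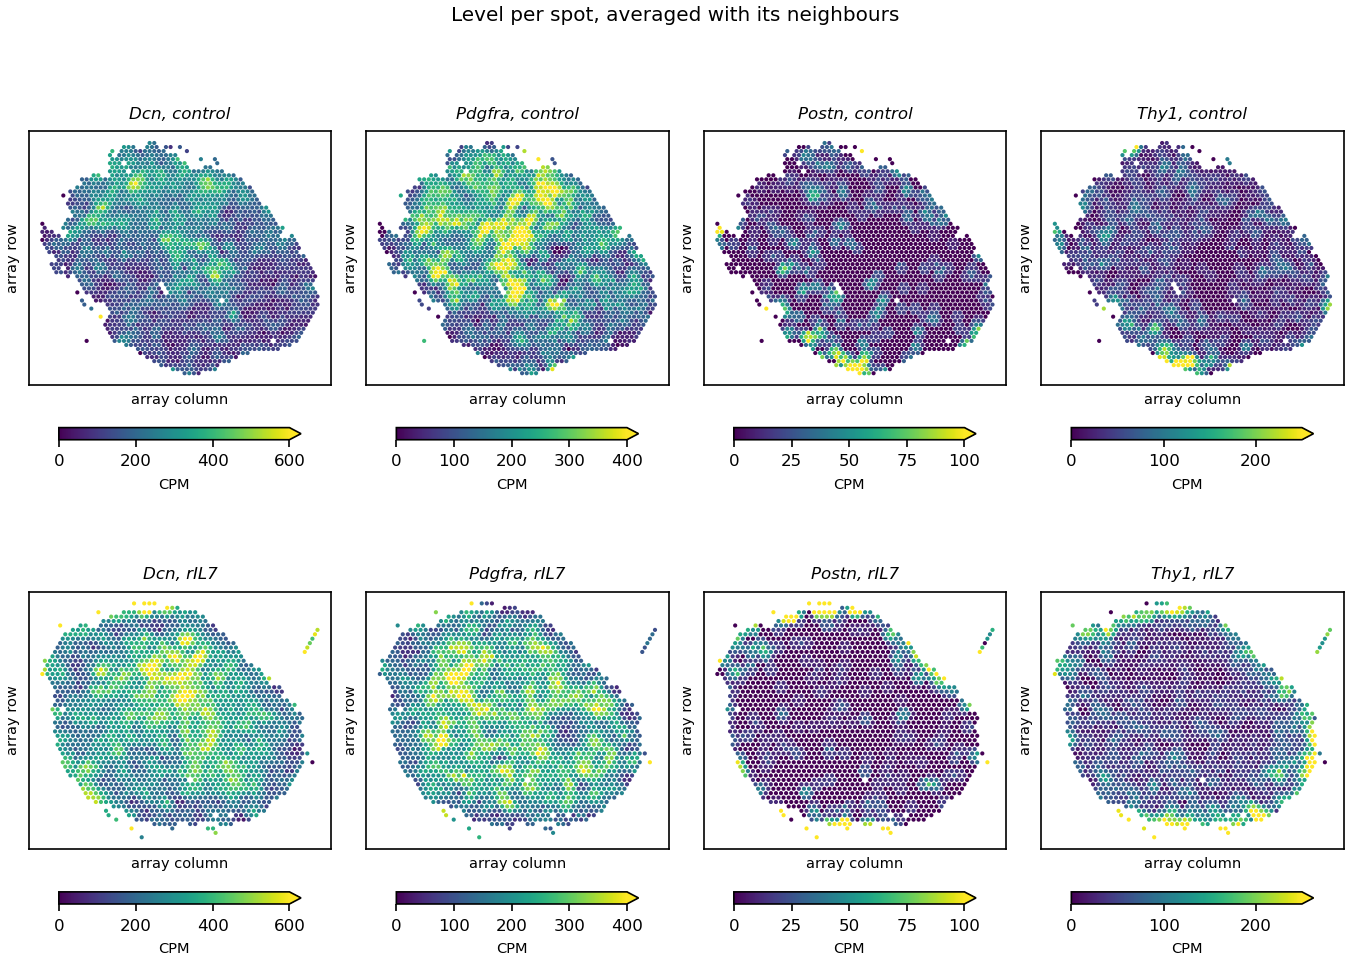
Spot maps of Dcn, Pdgfra, Postn and Thy1 in the control (top) and rIL7 (bottom) section, each spot coloured by the CPM of itself and its neighbours together. Axes are array column and row, and colours are capped where each bar ends in an arrow. Postn and Thy1 lie along much of the rIL7 outline and at 1 stretch of the lower control outline, while Dcn and Pdgfra are high in parts of the interior of both.

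Small islands of tissue off the main piece were counted in the section totals. The 21 such spots of the rIL7 section had 184 CPM of Lum, 322 CPM of Postn, 195 CPM of Acta2, 68.9 CPM of Tagln and 632 CPM of Dcn, and they held 32 of the 134 Lum UMIs and 56 of the 362 Postn UMIs. With the main piece alone, a choice made after seeing the data, the log2 ratio of rIL7 to control went from -0.61 to -0.97 for Lum and from 0.08 to -0.15 for Postn. The 12 such control spots held 3 UMIs of each.

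Other connective tissue genes were read beside the members. Of 17 matrix genes, 10 were called higher and 1 lower at the rIL7 edge, and 2 higher at the control edge. Fbln1, a basement membrane and elastic fibre protein, had 24.5 CPM at the rIL7 edge and 1.57 CPM inside, and the fibrillar collagen gene Col5a2 had 72.1 and 9.62 CPM, whereas Thbs2 had 124 and 231 CPM. Of 10 matrix-processing genes 2 were called higher at the rIL7 edge, the collagen cross-linking enzymes Lox, 9.16-fold (7.27 to 11.6), and Loxl1, 2.97-fold (2.53 to 3.48). Lox was the 1 called at the control edge, 2.54-fold (1.69 to 3.79).

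Genes of other fibroblast states and of mural cells were read in the same way at the rIL7 edge. Of 9 connective-tissue fibroblast genes 7 passed 5 CPM and 3 were called higher, led by Pi16, a marker of adventitial fibroblasts, at 10.6-fold (8.01 to 14.1), and Col15a1 at 6.03-fold (4.87 to 7.47). In this list 6 of 9 genes were higher at the edge, with a median log2 ratio of 0.64. Its summed level, which weights abundant genes most, differed little, at 1051 CPM there and 1009 CPM inside. Of the 8 inflammatory fibroblast genes that passed, 3 were called higher and 2 lower: the chemokine Cxcl12 was 12.3-fold higher (10.1 to 15.0) and complement C3 4.26-fold (4.05 to 4.48), while Cxcl1 and Lif had ratios of 0.618 and 0.638. Of 10 pericyte genes 4 passed and 3 were called higher, including Rgs5 at 4.07-fold (3.11 to 5.32), whereas Cspg4 had a ratio of 0.955. Of 12 contractile genes 6 passed and 1 was called, the myosin light chain Myl9 at 6.14-fold (4.002 to 9.44), and Tpm1 had a ratio of 0.835.

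Markers of other cells moved with the rIL7 rim too. T cell list genes were called higher at the edge in 11 of 11 cases, with a summed level of 637 CPM there and 262 CPM inside. Of all tested genes, 8.86% were called higher at this edge. Endothelial genes were called in 8 of 10 cases at 193 and 79.9 CPM, and macrophage genes in 6 of 8 at 6657 and 3876 CPM. Plasma cell genes were called in 3 of 3 cases at 761 and 22.6 CPM, and adipocyte list genes in 2 of 5 at 217 and 116 CPM. Of that adipocyte edge sum 186 CPM came from Fabp4 alone, so it is mainly a level of 1 gene. The CT26 tumor list, made of Baiap2l1 and Rpl39l, was lower at the edge, with 757 and 1096 CPM. At the control edge 0 genes of the T cell, endothelial, macrophage, plasma cell and adipocyte lists were called. Only 1.28% of all tested genes were called higher there, so few calls could arise. The endothelial and T cell sums were slightly higher at that edge, with ratios of 1.15 (1.04 to 1.27) and 1.12 (1.03 to 1.21). The outermost control ring held keratinocyte transcripts, with Krt14 at 74.5 CPM against 0 in rIL7. The part of these cells in the members' levels was not tested, but leaving out spots with keratinocyte UMIs, also chosen after seeing the data, moved no member's ratio beyond its interval.

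Single spots were too sparse to pair the members. After each spot was thinned to 5900 UMIs, the mean number of Dcn UMIs was 1.12 in the control tumor and 1.89 in the rIL7 tumor, and of Tagln 0.0185 and 0.0241. Spearman's rho over the 36 member pairs ran from -0.05 to 0.13 across 2002 control spots and from -0.11 to 0.21 across 1869 rIL7 spots. The highest pair was Dcn with Pdgfra in the control (0.13) and Lum with Tagln in rIL7 (0.21). Correlations of this size in sparse counts are no finding, and spots share a library and border each other.

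By the same measure the genes most like the members, out of 7690, were listed by the lower of both sections' rho. For Dcn with Lum they were Spp1 (0.196 in the control and 0.185 in rIL7), Il1rl1, Fn1, Tpt1 and Lrp1. For Acta2 with Tagln they were Igfbp7 (0.0748 and 0.0840), Ccdc80, H2-Ab1, Pecam1 and Lcp1, and for Fap with Postn they were Apoe (0.0762 and 0.108), Cd74, H2-Ab1, H2-Eb1 and Bgn. Of all these genes, 1 in 100 exceeded a rho of 0.0537 to 0.0808, depending on the pair and section. The Dcn with Lum sum was mainly Dcn, since Lum averaged 0.0440 thinned UMIs per spot in the control and 0.0289 in rIL7. Acta2 likewise outweighed Tagln. All these rho come from 1 thinning draw, and in counts this sparse they are no finding either. For Acta2 with Tagln the lower rho ran only from 0.0652 to 0.0748, so the order is not settled.

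Summing neighbouring spots made the members easier to compare. The main piece was cut into tiles of 6 array rows by 12 array columns, a choice made after seeing the data, leaving 61 control and 53 rIL7 tiles of at least 18 spots. Dcn ranged from 76.4 to 365 CPM among the control tiles and from 154 to 517 CPM among those of rIL7, and Pdgfra from 71.0 to 332 CPM and from 103 to 309 CPM. These 2 genes were high in the same tiles, with a rho of 0.71 in the control and 0.47 in rIL7. Among the 36 member pairs, 4 in the control and 3 in rIL7 reached 0.4, and 4 in rIL7 but 0 in the control were at -0.4 or below. Tiles share a library, levels are shares of 1 total, and Dcn also followed the median UMIs of a tile's spots (0.39 and 0.60).

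Thy1, Postn and Lum formed a second set. Thy1 with Postn had a rho of 0.42 in the control and 0.60 in rIL7, Lum with Postn 0.42 and 0.41, and Lum with Thy1 0.50 and 0.38. All 3 followed Col1a1, with 0.60 and 0.67 for Thy1, 0.46 and 0.62 for Postn, and 0.49 and 0.46 for Lum. Across the sets, Dcn with Thy1 had -0.71 and Pdgfra with Postn -0.66 in rIL7, whereas in the control these pairs had -0.17 and -0.14. In rIL7, Thy1 and Postn were higher at the edge and Dcn and Pdgfra higher inside. The part of distance in these values was not tested. Acta2 and Tagln, which are used together as myofibroblast markers, had 0.22 and 0.11 with each other.

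The sets also differed in the other transcripts around them. Pdgfra followed the CT26 tumor list (0.62 in the control and 0.63 in rIL7), as did Dcn (0.47 and 0.55), whereas Thy1 ran against it (-0.48 and -0.73). Spp1, osteopontin, followed Dcn with 0.67 and 0.60. Thy1 followed the T cell list, which does not contain it, with 0.46 in the control and 0.87 in rIL7, and the endothelial list with 0.21 and 0.67. In the control the T cell sum was mainly Trbc2, at 95.5 of 157 CPM, so that rho says little of the other T cell genes. As a check of the label, the 2 most abundant members thus lay where tumor cell transcripts were high. Thy1 lay with the summed T cell list as well as with Col1a1, so the 9 genes did not vary as 1 group in these sections. Whether tumor cells, fibroblasts or both carry the Dcn and Pdgfra transcripts cannot be told apart in spots.

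Dcn and the collagen Col3a1 were related in opposite ways, with a rho of 0.55 across control tiles and -0.60 across rIL7 tiles. Interior spots alone gave 0.57 across 51 tiles and -0.50 across 45 tiles. The rIL7 interior still held a gradient: from steps 3 to 4 to the core, Dcn rose from 238 to 397 CPM and Col3a1 fell from 535 to 289 CPM. A relation apart from distance was therefore not tested. Pdgfra with Col3a1 had 0.60 and -0.54 over all tiles, but 0.69 and -0.09 in the interior. The macrophage list likewise had 0.48 and -0.42 with Dcn, and 0.41 and -0.19 in the interior. These values describe 1 section each, and the difference between sections was not tested.

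**Figure D5:**
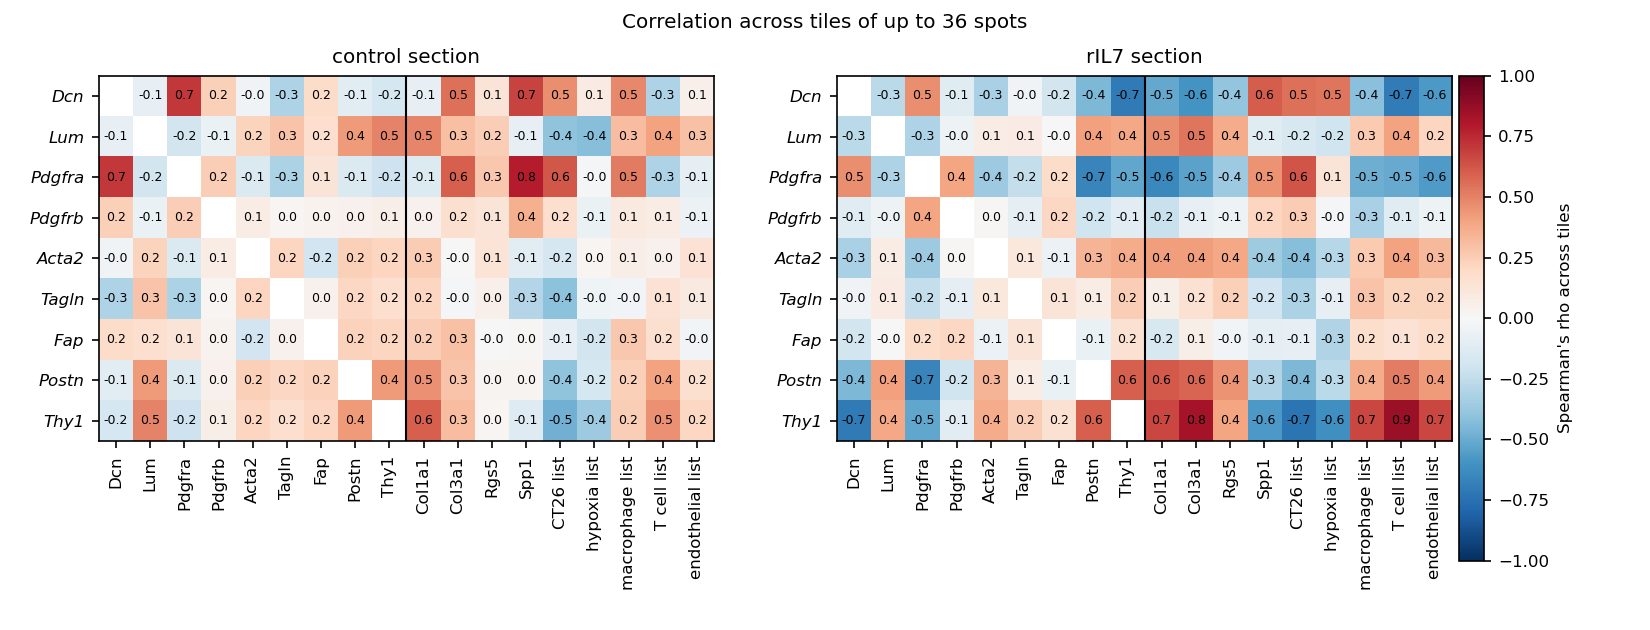
Spearman's rho across tiles between each member (rows) and the other members, 4 further genes and 5 summed marker lists (columns), in the control (left) and rIL7 (right) section. Red is positive and blue negative. Dcn and Pdgfra are positive with the CT26 list in both sections, and Dcn with Col3a1 changes from 0.55 to -0.60.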

How the data were processed

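Fresh-frozen CT26 tumors were cut into sections for Visium (Spatial 3′ v1), and the authors counted UMIs per gene and spot with Space Ranger 1.1.0 and the mm10 reference, per the submitters' notes. The deposited matrices hold these raw counts, without normalization. Deposited array positions, barcodes and gene names were used as given, and image scale factors were not used. Both sections list spots of the same array design, so 1702 spot barcodes were shared.

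Spots with under 10% mitochondrial UMIs and over 200 genes were kept, following the study's filter, which left 22951678 control and 25729233 rIL7 UMIs. Counts were summed over spots and divided by the summed total. Intervals are exact Poisson for a level and Clopper-Pearson for a ratio or share, at 95%, and cover neither animals nor libraries. With 1 section per group no test was run. Distance was the number of grid steps from the outline of the main (largest connected) piece. For correlations spots were thinned to 5900 UMIs with a fixed seed, and 217 control and 81 rIL7 spots were too shallow. Python 3.11.15, numpy 2.4.6, scipy 1.17.1, pandas 2.3.3 and, for TMM factors, R 4.3.3 with edgeR 4.0.16 were used, and the scripts were tested on simulated data. Median log2 ratios over all genes used genes with at least 20 UMIs in both groups together.

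The members and all gene lists were chosen with earlier results of these data known. Named were the 9 members, the 5 genes most like each of 3 role sums (with a UMI in at least 10% of thinned spots of each section), in each list at most the 2 largest and 2 smallest ratios among genes of at least 5 CPM, and Actg2, Myh11, Des, Rgs5, Cspg4, Pi16, Col1a1, Col3a1, Acta1, Cd3e and Pecam1. Coordinates come from RefSeq for GRCm38, the build of the counts. Alternatives were other scalings, spot filters, edge widths, spot weights and thinning draws.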

Additional observations from a re-analysis of the deposited data

Results flagged for a closer look

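Pdgfrb was flagged because its point ratios of edge to interior lay on opposite sides of 1 in the sections, although only the rIL7 ratio was beyond counting error. Its ratio of edge to interior CPM was 1.06 in the control section (0.927 to 1.21) and 0.695 in the rIL7 section (0.588 to 0.819), and the control interval included no difference. The difference between the sections was not tested, since each group is 1 section.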

How the results depend on the processing

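Position and spot weighting moved the most values. TMM and median-of-ratios scaling shifted log2 ratios of rIL7 to control by -0.01 each, and of 287 main and alternative values 7 summary values and 27 single-gene values moved beyond the counting error, while 2 single-gene values reversed. Weighting spots equally moved 6 of 27 values, among them the control log2 ratio of edge to interior for Lum (0.55 to 1.69), Postn (0.61 to 1.13) and Thy1 (0.49 to 0.72). Interior spots only moved 5 of 9 ratios of rIL7 to control, with Postn at -0.80 and Lum at -1.79. The median log2 ratio of rIL7 to control over the members went from 0.29 to 1.13 with edge spots only, where Lum reversed to 0.47 and Pdgfra to -0.19. That Lum value was itself within counting error of no difference. The median log2 ratio of edge to interior in the rIL7 section went from 0.97 to 1.38 with an edge of 1 grid step. The correlation of Dcn plus Lum with Acta2 plus Tagln across thinned spots, -0.0320 in the control tumor and -0.0381 in the rIL7 tumor, became 0.0562 and 0.0380 with UMIs as deposited. In rIL7 it also became 0.0252 in the highest of 20 thinning draws, 0.00909 as Pearson's r of log2(CPM + 1) and -0.333 over tiles. Its sign in single spots is therefore not settled, and it reflects mainly Dcn and Acta2, the more abundant gene of each pair. No paired analysis was possible because each group has 1 section and no value comes from a test, and for the same reason no replicate could be left out. Depth limits Tagln, Lum, Fap and Postn, which had 59 to 381 UMIs in a section.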
